A study of Homo sapiens with 6 samples.

Results

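The ATP-binding cassette (ABC) transporter genes were described in K562 cells, a human line of chronic myeloid leukemia in myeloid blast phase, after depletion of METTL3 or METTL14. Members were the protein-coding genes of the count table whose symbol starts with ABCA to ABCG, and 43 of the 61661 rows of the table are described. The RNA-seq data comprised 6 libraries in 3 groups of 2. K562 shCTR cells carried a nonsense shRNA, K562 shMETTL3 cells an shRNA against METTL3 and K562 shMETTL14 cells an shRNA against METTL14. The shCTR and shMETTL3 cells were stable lines made with a lentiviral vector that also carries GFP and a puromycin resistance gene, and how the METTL14 line was made is not given in the sources used here. The authors grew K562 cells in RPMI medium with serum. Each group stood for 1 line, and nothing says that its 2 libraries came from separate cultures, so the p-values measure the spread between libraries, which may be technical. All of these are bulk libraries, in which fewer cells with a transcript and less transcript per cell cannot be told apart.

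ABC proteins bind and hydrolyze ATP on a pair of nucleotide-binding domains, and most use that energy to move a substrate across a membrane. Subfamilies A to G differ in substrate and membrane: A and part of G carry sterols and phospholipids, B and C hold the multidrug pumps and the mitochondrial carriers, D imports acyl-CoA into peroxisomes, and E and F have no membrane domain and work on ribosomes. ABCB1 (P-glycoprotein), ABCC1 (MRP1) and ABCG2 (BCRP) are the members best known for expelling chemotherapeutic drugs from leukemia cells. METTL3 is the catalytic subunit of the complex that writes N6-methyladenosine (m6A) on mRNA, and METTL14 is its RNA-binding partner.

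Totals of 19292574 to 20115304 reads per library were counted. METTL3 had 1788 and 1728 reads in shCTR, 1031 and 938 in shMETTL3 and 1731 and 1498 in shMETTL14, and its log2 fold change in shMETTL3 against shCTR was -0.87 ± 0.08 (SE; edgeR adjusted p = 3.44e-07). METTL14 had 656 and 655 reads in shCTR, 375 and 404 in shMETTL14 and 752 and 710 in shMETTL3, and its log2 fold change in shMETTL14 against shCTR was -0.76 ± 0.09 (SE; edgeR adjusted p = 1.40e-05). Both targeted genes were therefore lower in the line labelled for them. Of 12 erythroid genes typical of K562, 9 had at least 1870 reads in every library, among them GATA1 with at least 4942, while the globins HBG1, HBG2 and HBZ had 10 to 22, 125 to 138 and 103 to 258. Among the markers of other cell types described, 13 had at most 16 reads in a library. The exceptions were LYZ (monocytes), whose values stand beside those of ABCG2, EPCAM (epithelium) with 1083 and 1042 reads in shCTR, 728 and 733 in shMETTL3 and 799 and 822 in shMETTL14, CD3D (T cells) with 62 to 118 and COL1A1 (fibroblasts) with 42 to 112. CDH1 and KRT5, the other epithelial markers, were at 0, and the part of these genes in the results was not tested.

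Of the 43 members, 25 passed the filter on low counts and were tested, 9 had more than 3 reads in some library but did not pass it, and 9 had at most 3 reads in every library. The RefSeq table of promoters (GRCh38.p14, 250 bases before to 50 after a start) matched 35 members with 53 starts. Promoters are shown for ABCG2 and ABCB1, the pumps with opposite signs in the comparison of the knockdown lines, and for ABCA3, the lipid transporter whose rise in shMETTL3 was kept under 13 alternatives of the processing but, at 1.36-fold, lies under the fold threshold of 1.5 that was also applied to the counts of calls. Capitals mark GGGCGG (the GC box), CCAAT and CACGTG (an E-box) on either strand, and for ABCG2 and ABCB1 the start with most such matches was taken, the first listed where tied, of 5 and 2 starts.
ABCG2, chr4:88158810-88159109, minus strand: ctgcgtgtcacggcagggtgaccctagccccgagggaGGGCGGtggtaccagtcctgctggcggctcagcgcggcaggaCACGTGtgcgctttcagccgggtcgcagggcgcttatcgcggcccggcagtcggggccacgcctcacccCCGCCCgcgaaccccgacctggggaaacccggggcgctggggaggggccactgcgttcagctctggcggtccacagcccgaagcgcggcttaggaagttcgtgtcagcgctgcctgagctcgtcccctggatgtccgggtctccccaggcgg
ABCB1, chr7:87600835-87601134, minus strand: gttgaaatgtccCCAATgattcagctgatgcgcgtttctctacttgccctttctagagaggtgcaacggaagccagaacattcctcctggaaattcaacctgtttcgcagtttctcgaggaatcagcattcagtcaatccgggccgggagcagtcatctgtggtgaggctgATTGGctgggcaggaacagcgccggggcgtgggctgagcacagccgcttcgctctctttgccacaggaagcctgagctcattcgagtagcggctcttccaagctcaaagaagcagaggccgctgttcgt
ABCA3, chr16:2340679-2340978, minus strand: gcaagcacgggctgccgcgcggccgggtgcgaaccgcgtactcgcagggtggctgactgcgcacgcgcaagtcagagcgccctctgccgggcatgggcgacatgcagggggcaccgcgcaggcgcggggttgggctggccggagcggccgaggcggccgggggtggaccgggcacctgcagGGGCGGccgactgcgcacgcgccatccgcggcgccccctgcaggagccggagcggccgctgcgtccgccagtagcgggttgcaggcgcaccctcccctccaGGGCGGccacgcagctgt
The ABCG2 window was 72.3% GC and held 2 GC boxes and 1 CACGTG. The ABCB1 window was 55.3% GC, with 2 CCAAT matches and no GC box, and the ABCA3 window was 78% GC with 2 GC boxes. No capitalised matches overlap. GGGCGG was in 45% of all 35116 promoters of the table and in 25 of the 53 member promoters (47.2%), CCAAT in 34.6% and in 12 (22.6%), and CACGTG in 7.26% and in 9 (17%). Other motifs searched on both strands were TATAA, in 9 of the 53, GATAA, in 12, TGANTCA, in 6, and TGACNNNGC, in 12, against 20.4%, 22.7%, 7.71% and 13.3% of all promoters. A match is a description of letters, and which start K562 cells use was not measured.

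ABC transcripts together took between 0.153% and 0.163% of the reads of a library. As CPM, counts scaled to library size and TMM factors, their sum was 1582 and 1560 in shCTR, 1577 and 1570 in shMETTL3 and 1628 and 1592 in shMETTL14, so this total stayed between 1560 and 1628 CPM. Compared per kb of the longest transcript, the soluble ABCF1, ABCE1 and ABCF2 stood highest, at means over the 6 libraries of 56.5, 38.2 and 37.2 CPM per kb. ABCF1 acts with eIF2 in translation initiation, and ABCE1 splits ribosomes for recycling. Next came ABCB10, a mitochondrial transporter of erythroid cells, at 22.7 CPM per kb and ABCC5 (MRP5), an exporter of cyclic nucleotides, at 21.7 CPM per kb. Among the 3 classic pumps ABCC1 was at 12.8 CPM per kb, ABCB1 at 5.84 and ABCG2 at 4.62. The levels of ABCB1 and ABCG2 crossed between groups: ABCG2 was below ABCB1 in both shCTR and both shMETTL3 libraries and above it in both shMETTL14 libraries.

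**Figure D1:**
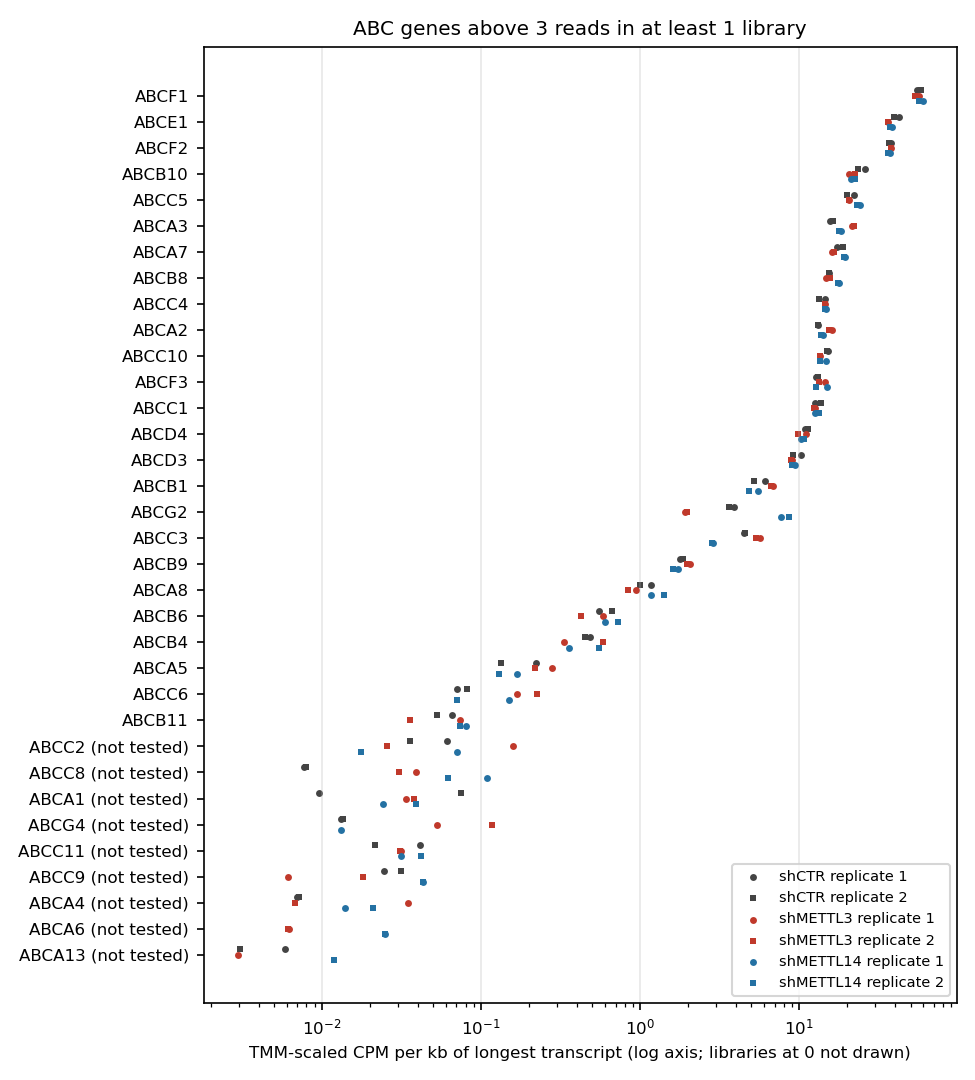
Levels of the 34 ABC genes with more than 3 reads in at least 1 library, as TMM-scaled CPM per kb of the longest transcript on a log axis, 1 point per library, with colour for the group and shape for the replicate; libraries at 0 are not drawn. Points of 1 gene lie close together for most genes, while the 3 groups part for ABCG2, whose mean over the libraries is 4.62 CPM per kb, and for ABCC3.

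In shMETTL3 against shCTR, 5 of the 25 tested members passed the threshold of an adjusted p of 0.05 (20%), where 16.5% of the 17686 genes tested did. ABCA2, ABCA3, ABCC3 and ABCC6 rose, against 8.73% of all genes that were higher, and ABCG2 fell, against 7.73% that were lower. The count was lower when any shMETTL3 or shMETTL14 replicate was left out, and fewer of all genes passed in each of these fits as well. The median log2 fold change of the 25 members was -0.03, and that of all genes 0.00. In shMETTL14 against shCTR, 2 members passed (8%, against 6.69% of all genes): ABCG2 rose, where 3.43% of all genes did, and ABCC3 fell, where 3.26% did. The median was 0.04 for the members and 0.00 for all genes. In shMETTL3 against shMETTL14, 7 members passed (28%, against 12.1% of all genes). ABCA3, ABCB1 and ABCC3 were higher in shMETTL3, as were 6.65% of all genes, and ABCA7, ABCA8, ABCB8 and ABCG2 were lower, as were 5.49%. That count, too, was lower when any shMETTL3 or shMETTL14 replicate was left out, as was the number called over all genes. Both knockdown lines were compared with the same 2 shCTR libraries, so the values against shCTR are given side by side and not correlated.

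**Figure D2:**
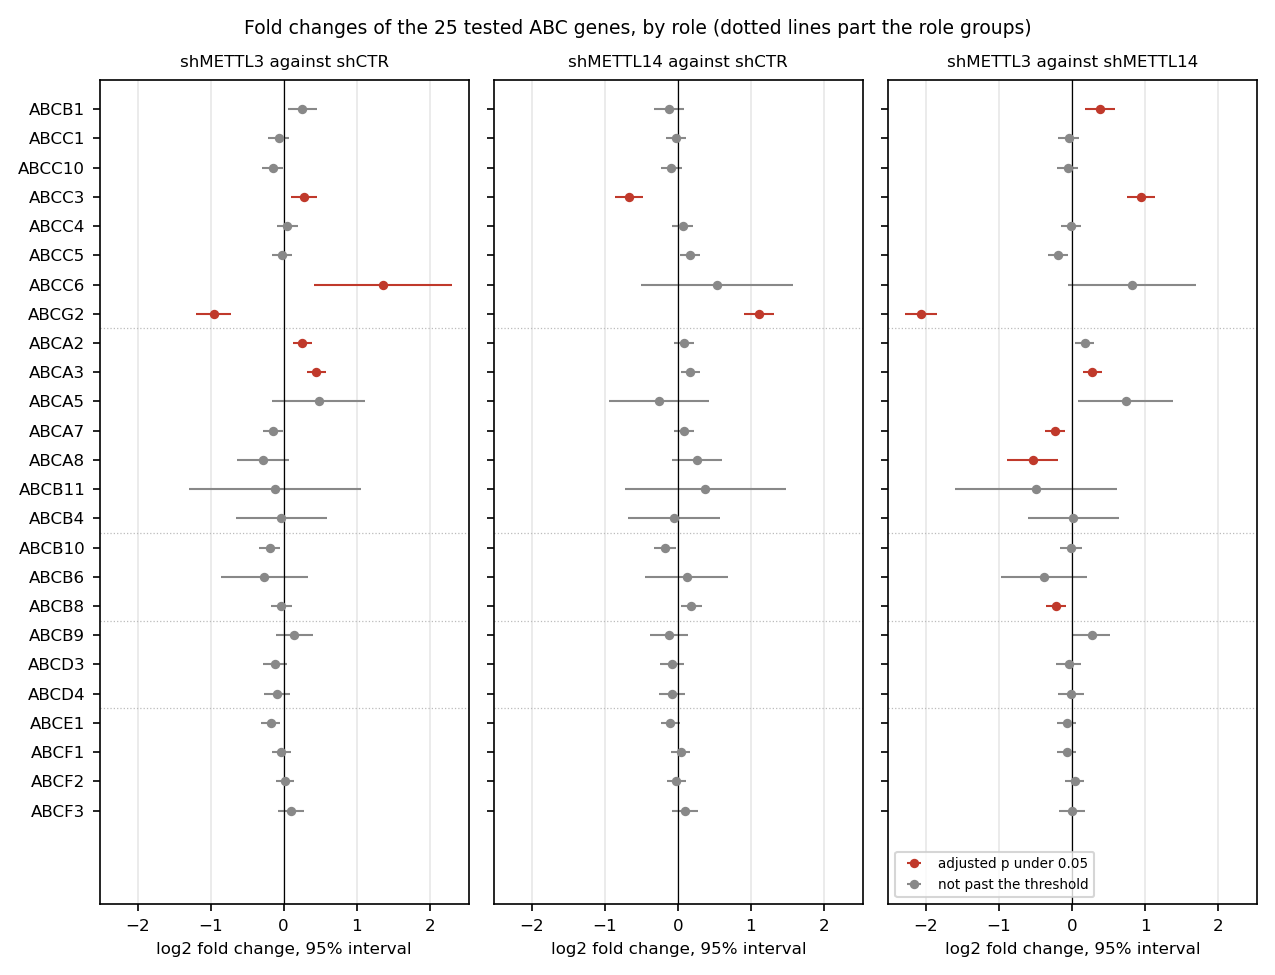
Log2 fold changes of the 25 tested ABC genes with 95% intervals (horizontal bars) in the 3 comparisons, ordered by role from drug efflux at the top to soluble members at the bottom; red points have an edgeR adjusted p under 0.05. ABCG2 lies on opposite sides of 0 in the first and second panel, at -0.96 and 1.11.

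ABCG2 (ENSG00000118777; chromosome 4, 88090264 to 88231322, minus strand, hg38), which exports drugs, urate and porphyrins, showed the largest difference between the knockdown lines of any tested member. It had 345 and 312 reads in shCTR, 169 and 176 in shMETTL3 and 676 and 755 in shMETTL14. The 3 groups did not overlap, with shMETTL3 lowest and shMETTL14 highest. In CPM the means were 16.9 ± 0.82, 8.69 ± 0.12 and 36.5 ± 2.91 (SD, n = 2 each). ABCG2 fell to 0.515 of the shCTR level in shMETTL3 (log2 fold change -0.96 ± 0.11 SE, edgeR adjusted p = 9.56e-06). It rose 2.16-fold in shMETTL14 (1.11 ± 0.10, edgeR adjusted p = 4.68e-07). Tested directly, shMETTL3 was lower than shMETTL14 (log2 difference -2.07 ± 0.11 SE, 95% interval -2.29 to -1.85, edgeR adjusted p = 8.97e-11). All 3 calls were kept under each of the 13 alternatives, with ranges of -1.01 to -0.90, 1.03 to 1.19 and -2.15 to -1.98. LYZ, which codes for lysozyme and marks monocytes, had 830 and 840 reads in shCTR, 324 and 310 in shMETTL3 and 1177 and 1273 in shMETTL14, the same order of groups. CD14 and CSF1R, the other monocyte markers, had at most 3 reads in every library, and what moved LYZ with ABCG2 was not tested. The exons of ABCG2 share no base with another gene of GENCODE 29.

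ABCB1 (ENSG00000085563; chromosome 7, 87503633 to 87713323, minus strand), the P-glycoprotein that exports many hydrophobic drugs, had 577 and 472 reads in shCTR, 639 and 638 in shMETTL3 and 515 and 453 in shMETTL14. Both shMETTL3 libraries were above all others, and shCTR and shMETTL14 overlapped. The log2 fold change was 0.26 ± 0.10 (SE) in shMETTL3 against shCTR, which did not pass (edgeR adjusted p = 0.0747), and -0.13 ± 0.10 in shMETTL14 (edgeR adjusted p = 0.502). Between the lines, ABCB1 was 1.30-fold higher in shMETTL3 than in shMETTL14 (0.38 ± 0.10, edgeR adjusted p = 0.0114). That call was lost without shMETTL3 replicate 1 (0.37, edgeR adjusted p = 0.0905), without shMETTL3 replicate 2 (0.40, 0.0640) and without shMETTL14 replicate 2 (0.30, 0.208). Against shCTR, the value passed without shCTR replicate 1 (0.38, edgeR adjusted p = 0.0206), with library size alone as scaling (0.31, 0.0317) and with the replicate number as a block (0.26, 0.0456).

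ABCC1 (ENSG00000103222; chromosome 16, 15949577 to 16143074, plus strand), the exporter of glutathione conjugates, had 1634 and 1726 reads in shCTR, 1625 and 1646 in shMETTL3 and 1615 and 1720 in shMETTL14. The 3 groups overlapped. Its log2 fold change was -0.07 in shMETTL3 (95% interval -0.21 to 0.07) and -0.02 in shMETTL14 (95% interval -0.17 to 0.12), and neither passed (edgeR adjusted p = 0.539 and 0.886). ABCC1 passed in none of the 3 comparisons under any of the 13 alternatives run.

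ABCC3 (ENSG00000108846; chromosome 17, 50634777 to 50692252, plus strand), MRP3, exports organic anions at the basolateral membrane of epithelia. It had 509 and 496 reads in shCTR, 632 and 615 in shMETTL3 and 324 and 315 in shMETTL14. The groups did not overlap, and their order was the reverse of that of ABCG2. ABCC3 fell to 0.630 of shCTR in shMETTL14 (-0.67 ± 0.09 SE, edgeR adjusted p = 0.000114). Between the lines it was 1.93-fold higher in shMETTL3 (0.95 ± 0.09, edgeR adjusted p = 5.75e-07), and both calls were kept under all 13 alternatives. Its rise in shMETTL3 against shCTR was smaller (0.28 ± 0.09, edgeR adjusted p = 0.0298) and was lost under 9 of the 13. Among these, the value was 0.28 with DESeq2 (adjusted p = 0.116), 0.20 with the trend on GC content and length removed (edgeR adjusted p = 0.0857), and 0.25 without shMETTL3 replicate 1 (0.192). It was 0.32 without shMETTL3 replicate 2 (edgeR adjusted p = 0.102), 0.28 without shCTR replicate 1 (0.0777), 0.28 without shMETTL14 replicate 1 (0.0607) and 0.28 without shMETTL14 replicate 2 (0.0566).

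ABCC6 (ENSG00000091262; chromosome 16, 16148928 to 16223522, minus strand), which is mutated in pseudoxanthoma elasticum, had 8 and 9 reads in shCTR, 19 and 26 in shMETTL3 and 17 and 8 in shMETTL14. Its rise in shMETTL3 (1.36 ± 0.45 SE, edgeR adjusted p = 0.0442) rests on few reads, and it passed in 4 of 12 alternatives. Each library left out ended the call: 1.25 and 1.47 without shCTR replicate 1 or 2, 1.55 and 1.14 without shMETTL3 replicate 1 or 2, and 1.36 without either shMETTL14 replicate, with edgeR adjusted p from 0.0501 to 0.301. ABCC6P1 and ABCC6P2, near-identical partial copies on the same chromosome, had up to 6 and up to 4 reads, so the value of ABCC6 is uncertain.

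The other tested drug exporters, ABCC4, ABCC5 and ABCC10, did not pass in any comparison as fitted over all 6 libraries. ABCC5, the highest of the group per kb, had 2575 and 2266 reads in shCTR, 2393 and 2447 in shMETTL3 and 2801 and 2662 in shMETTL14, and its log2 fold changes were -0.03 and 0.16 against shCTR (edgeR adjusted p = 0.814 and 0.156). Without shCTR replicate 1 the shMETTL14 value was 0.23 (edgeR adjusted p = 0.0432). Between the lines ABCC5 was at -0.19 ± 0.07 (SE, edgeR adjusted p = 0.0639), and it passed under 5 of 13 alternatives: with the replicate number as a block (0.0393), with the trend on GC content and length removed (-0.22, 0.00727), with only the compared groups (0.0176) and without shCTR replicate 1 (0.0152) or 2 (0.0150). ABCC4 (MRP4), which exports nucleotides and nucleoside analogs, had 1780 and 1568 reads in shCTR, 1747 and 1792 in shMETTL3 and 1782 and 1746 in shMETTL14, with log2 fold changes of 0.05 and 0.06. Over the 12 drug exporters the CPM summed to 453 and 434 in shCTR, 437 and 435 in shMETTL3 and 469 and 459 in shMETTL14. In all, 2 of the 8 tested exporters rose and 1 fell in shMETTL3, where 8.73% and 7.73% of all genes did, and 1 rose and 1 fell in shMETTL14, where 3.43% and 3.26% did. The 2 that rose in shMETTL3, ABCC3 and ABCC6, lost that call under 9 of 13 and 8 of 12 alternatives. ABCC2 and ABCC11 had at most 18 reads in a library and ABCC12 and ABCB5 at most 1.

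**Figure D3:**
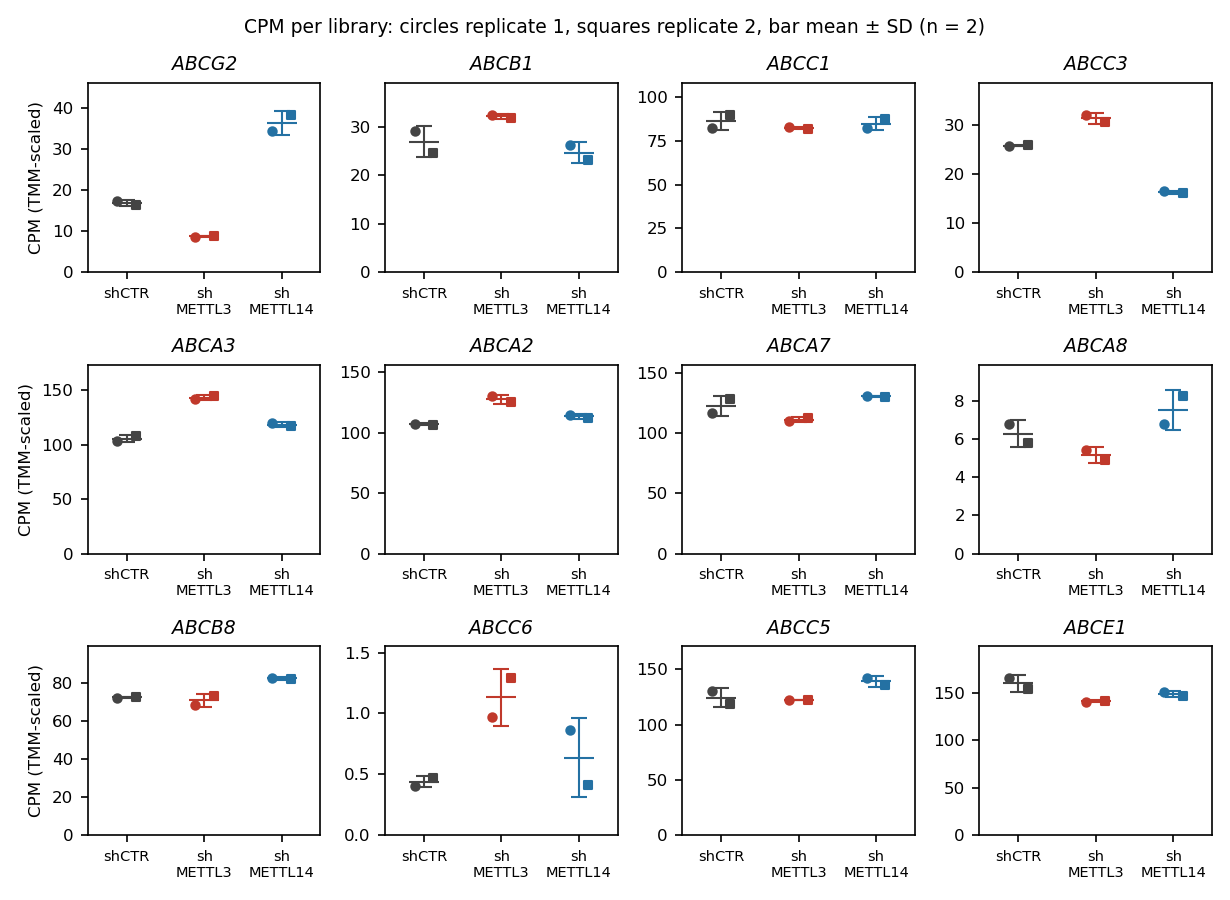
TMM-scaled CPM in each library (circles replicate 1, squares replicate 2) with the group mean and SD (n = 2) for 12 ABC genes; every vertical axis starts at 0. The groups are apart for ABCG2, from 8.60 to 38.5 CPM, run in the opposite order for ABCC3, and overlap for ABCC1.

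The peroxisomal and lysosomal members ABCD3, ABCD4 and ABCB9 did not pass in any comparison. ABCD3 (PMP70), which imports branched chain acyl-CoA, had 890 and 764 reads in shCTR, 773 and 776 in shMETTL3 and 807 and 775 in shMETTL14, and its log2 fold changes were -0.12 and -0.08. ABCD4, the lysosomal cobalamin exporter, had between 595 and 655 reads in the 6 libraries and log2 fold changes of -0.09 and -0.08. ABCB9, a lysosomal peptide importer, had between 191 and 245 reads, and 24.5% of its exon bases lie under genes of the opposite strand such as OGFOD2 and ARL6IP4, so its reads are uncertain where strand was not used. ABCD2 had at most 1 read.

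ABCA3 (ENSG00000167972; chromosome 16, 2275881 to 2340746, minus strand) loads phospholipid into lamellar bodies and was the highest lipid transporter per kb. It had 2040 and 2065 reads in shCTR, 2791 and 2908 in shMETTL3 and 2361 and 2298 in shMETTL14. The 3 groups did not overlap. ABCA3 rose 1.36-fold in shMETTL3 (0.44 ± 0.06 SE, edgeR adjusted p = 6.97e-05) and kept that call under the same 13 alternatives, from 0.29 to 0.50. In shMETTL14 the value was 0.17 ± 0.06 (edgeR adjusted p = 0.119), and shMETTL3 exceeded shMETTL14 by 0.27 ± 0.06 (edgeR adjusted p = 0.00534). The last difference was lost without shMETTL3 replicate 2 (0.26, edgeR adjusted p = 0.0786), without shMETTL14 replicate 1 (0.29, 0.0613) and without shMETTL14 replicate 2 (0.26, 0.0969).

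ABCA2 (ENSG00000107331; chromosome 9, 137007227 to 137028922, minus strand), an endolysosomal lipid transporter, had 2123 and 2039 reads in shCTR, 2561 and 2509 in shMETTL3 and 2253 and 2199 in shMETTL14. The groups did not overlap in CPM. Its rise of 1.19-fold in shMETTL3 (0.26 ± 0.06 SE, edgeR adjusted p = 0.00808) was 0.05 once the trend on GC content and length had been taken out (edgeR adjusted p = 0.579). It was 0.23 without shMETTL3 replicate 1 (edgeR adjusted p = 0.104). In shMETTL14 it was 0.08 ± 0.06 (edgeR adjusted p = 0.484).

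ABCA7 (ENSG00000064687; chromosome 19, 1040101 to 1065572, plus strand), a phospholipid transporter close to ABCA1, had 2311 and 2465 reads in shCTR, 2158 and 2261 in shMETTL3 and 2574 and 2552 in shMETTL14. The shMETTL3 libraries were the lowest and the shMETTL14 libraries the highest. Against shCTR the log2 fold changes were -0.14 and 0.09 and did not pass (edgeR adjusted p = 0.148 and 0.480). Between the lines ABCA7 was lower in shMETTL3 (-0.23 ± 0.07 SE, edgeR adjusted p = 0.0238). Leaving out either shMETTL3 or either shMETTL14 library ended that call, with values of -0.21 and -0.25 and of -0.23 and -0.23 and edgeR adjusted p from 0.133 to 0.195. With the trend on GC content and length removed, ABCA7 passed against shCTR as well (-0.34, edgeR adjusted p = 9.01e-05), and it did without shCTR replicate 1 (-0.21, 0.0336).

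ABCA8 (ENSG00000141338; chromosome 17, 68867292 to 68955392, minus strand), a member of the ABCA6-like cluster, was at a low level, with 134 and 111 reads in shCTR, 107 and 98 in shMETTL3 and 133 and 162 in shMETTL14. It was lower in shMETTL3 than in shMETTL14 (-0.54 ± 0.17 SE, edgeR adjusted p = 0.0400), a call kept in 6 of 13 alternatives. Without shMETTL3 replicate 1 or 2 the value was -0.62 and -0.46, and without shMETTL14 replicate 1 or 2 it was -0.68 and -0.39, with edgeR adjusted p from 0.0560 to 0.346. Against shCTR its values were -0.29 and 0.26 and did not pass.

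Of the lipid and sterol group, 7 of 18 members were tested: 2 rose and none fell in shMETTL3, and none passed in shMETTL14, where 16.5% and 6.69% of all genes passed. The group's CPM summed to 339 and 353 in shCTR, 393 and 393 in shMETTL3 and 377 and 373 in shMETTL14. Sterol exporters of macrophages and liver were at the floor or near it: ABCA1 had 2 to 15 reads, and ABCG1, ABCG5 and ABCG8 had at most 1 read in a library. ABCB4 and ABCB11, the exporters of phosphatidylcholine and bile salts into bile, had at most 50 and 11 reads.

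The mitochondrial members ABCB6, ABCB8 and ABCB10 did not pass against shCTR in either line. ABCB10 (ENSG00000135776; chromosome 1, 229516582 to 229558695, minus strand), which GATA1 induces in erythroid cells, had 1967 and 1731 reads in shCTR, 1562 and 1739 in shMETTL3 and 1600 and 1702 in shMETTL14. Its log2 fold changes were -0.19 ± 0.07 (SE) and -0.18 ± 0.07 (edgeR adjusted p = 0.0708 and 0.160). Without shCTR replicate 2 both passed (-0.26 and -0.24, edgeR adjusted p = 0.0145 and 0.0362). Processed pseudogenes of ABCB10 held many reads, ABCB10P4 653 and 1201 in shCTR and ABCB10P3 294 to 836 over the 6 libraries, so how reads were split among them is uncertain.

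ABCB8 (ENSG00000197150; chromosome 7, 151028422 to 151047782, plus strand), an inner membrane transporter, had 1427 and 1386 reads in shCTR, 1345 and 1467 in shMETTL3 and 1626 and 1604 in shMETTL14. It was lower in shMETTL3 than in shMETTL14 (-0.22 ± 0.07 SE, edgeR adjusted p = 0.0360), a call kept in 6 of 13 alternatives. Without shMETTL3 replicate 1 or 2 the value was -0.17 and -0.26, and without shMETTL14 replicate 1 or 2 it was -0.21 and -0.22, with edgeR adjusted p from 0.102 to 0.322. ABCB6, a porphyrin transporter, had only 26 to 43 reads in a library.

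The soluble members passed in no comparison, with SEs of at most 0.09 on the log2 scale. ABCF1 (ENSG00000204574; chromosome 6, 30571376 to 30597179, plus strand) had 3791 and 3851 reads in shCTR, 3875 and 3740 in shMETTL3 and 4078 and 3858 in shMETTL14. Its log2 fold changes were -0.03 (95% interval -0.16 to 0.09) and 0.04 (95% interval -0.09 to 0.17). ABCE1 (ENSG00000164163; chromosome 4, 145097932 to 145129179, plus strand) had 3278 and 2935 reads in shCTR, 2762 and 2840 in shMETTL3 and 2962 and 2863 in shMETTL14. It was lowest in shMETTL3, at -0.18 ± 0.06 (SE, edgeR adjusted p = 0.0592), and -0.11 ± 0.06 in shMETTL14 (0.367). Without shCTR replicate 2 the shMETTL3 value was -0.24 (edgeR adjusted p = 0.0100), and with the replicate number as a block it was -0.18 (0.0399).

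The channel regulators ABCC8 (SUR1) and ABCC9 (SUR2), subunits of the ATP-sensitive potassium channel, were not tested. ABCC8 had 1 and 1 reads in shCTR, 5 and 4 in shMETTL3 and 14 and 8 in shMETTL14, and ABCC9 at most 7. CFTR, the ABC protein that is itself a channel and whose symbol lies outside the rule, had no read in the 6 libraries, against a limit of 3 reads per library that a count of 0 allows for counting error.

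Members differed widely in the GC content of the longest transcript, from 33.1% for ABCA5 to 64.7% for ABCA7, with a median of 52.2% over the tested members and 48.2% over all tested genes. Removing a smooth trend of each library on GC content and length lowered the shMETTL3 values of GC-rich members: ABCA3 moved from 0.44 to 0.29, ABCA2 from 0.26 to 0.05 and ABCA7 from -0.14 to -0.34. ABCG2, with 41.2% GC, moved from -0.96 to -0.90. After it, 5 of the 25 tested members passed in shMETTL3, where 3444 of the 17686 genes tested did. These were ABCA3 and ABCB1, higher, and ABCA7, ABCC10 and ABCG2, lower. ABCB1 was then at 0.30 (edgeR adjusted p = 0.0176) and ABCC10 at -0.26 (0.00301). In shMETTL14 the shift was smaller, from 0.17 to 0.10 for ABCA3, and 2 members passed, where 1655 of the 17686 genes did. The cause of the trend was not tested.

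**Figure D4:**
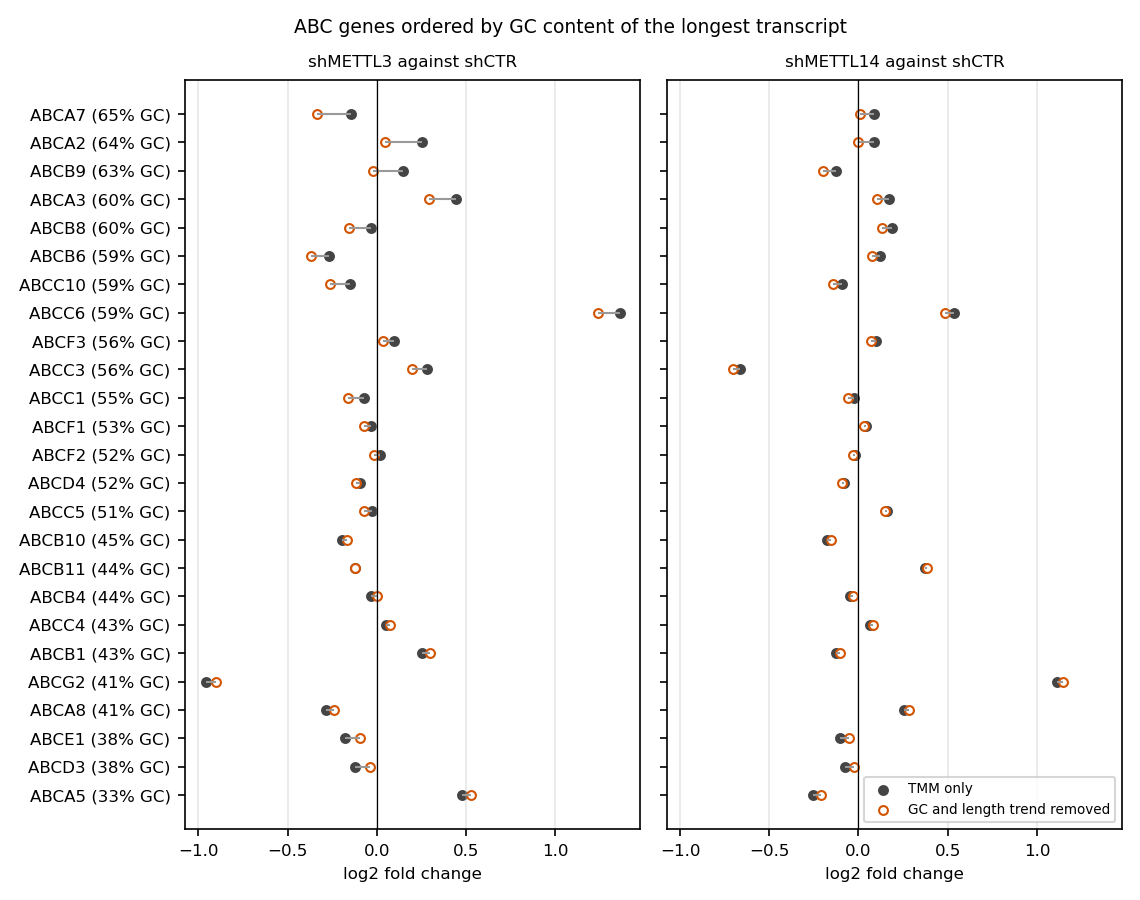
Log2 fold changes of the 25 tested ABC genes against shCTR before (filled) and after (open) removal of a smooth trend on GC content and length, ordered by the GC content of the longest transcript. In shMETTL3 the open points of GC-rich genes lie left of the filled ones, as for ABCA2, from 0.26 to 0.05, while ABCG2 stays near -0.90.

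The m6A consensus core GGACT, read on the transcript strand only, occurred 3 times in the longest transcript of ABCG2 (0.67 per kb), 8 times in ABCC3 (1.40 per kb) and 13 times in ABCC1 (1.97 per kb). The tested members had a median of 0.778 per kb, with quartiles of 0.613 and 1.17. Over the 15973 genes with a mean of at least 10 reads the median was 0.91 per kb, with quartiles of 0.503 and 1.40. Methylation was not measured here, and a match is letters, not a methylated site.

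The genes around the transporters were read from 8 lists with 121 genes, of which 114 were tested. In shMETTL3, 7 rose and 11 fell (15.8%, against 16.5% of all genes), in shMETTL14 6 rose and 2 fell (7.02%, against 6.69%), and 3 were higher and 6 lower in shMETTL3 than in shMETTL14 (7.89%, against 12.1%). These counts moved with single libraries, and so did the number called over all genes. In shMETTL3 both were lower when either shMETTL3 replicate or shCTR replicate 1 was left out, and higher without shCTR replicate 2. In shMETTL14 both were lower when either shMETTL14 replicate or shCTR replicate 1 was left out, and higher without shCTR replicate 2. Between the lines both were lower when any shMETTL3 or shMETTL14 replicate was left out, and higher without either shCTR replicate.

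Among the 20 heme and iron-sulfur genes, the partners of the mitochondrial members, 3 rose and 2 fell in shMETTL3 and 3 rose in shMETTL14, where 16.5% and 6.69% of all genes passed. ALAS2, the first enzyme of erythroid heme synthesis, had 274 and 309 reads in shCTR, 1040 and 996 in shMETTL3 and 652 and 687 in shMETTL14. It rose in both lines (1.77 ± 0.09 SE, edgeR adjusted p = 3.20e-10, and 1.19 ± 0.09, edgeR adjusted p = 1.51e-07) and kept both calls under all 13 alternatives. PPOX, a later enzyme of the pathway, rose in shMETTL14 (0.45 ± 0.08, edgeR adjusted p = 0.000716), and in shMETTL3 it was at -0.13 (0.256). With the trend on GC content and length removed, PPOX passed as lower in shMETTL3 (-0.23, edgeR adjusted p = 0.0146). Between the lines it was lower in shMETTL3 (-0.59 ± 0.08, edgeR adjusted p = 2.21e-05), a call kept under all 13 alternatives. IBA57, an assembly factor of mitochondrial iron-sulfur clusters, rose in shMETTL3 (0.36 ± 0.09, edgeR adjusted p = 0.0120), a call lost without shCTR replicate 1 (0.33), without shMETTL3 replicate 2 (0.28) and with the trend on GC content and length removed (0.24).

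Of the 13 tested genes of xenobiotic sensing and glutathione, which feeds the ABCC pumps, 1 rose and 3 fell in shMETTL3 and none passed in shMETTL14, against the same shares of 16.5% and 6.69% of all genes. GCLC, the catalytic subunit of the first enzyme of glutathione synthesis, fell in shMETTL3 (-0.43 ± 0.10 SE, edgeR adjusted p = 0.00813) and lost that call without shMETTL3 replicate 2, at -0.29. KEAP1, the repressor of NRF2, rose there (0.26 ± 0.07, edgeR adjusted p = 0.0144), and lost that call without shCTR replicate 1 (0.19), without shMETTL3 replicate 2 (0.21) and with the trend on GC content and length removed (0.15). Of the drug uptake carriers and vault genes, 1 of 11 passed in shMETTL3, where 16.5% of all genes did. None passed in shMETTL14, against 6.69% of all genes. MVP, the major vault protein, rose in shMETTL3 (0.56 ± 0.18, edgeR adjusted p = 0.0370), a call lost under 7 of 13 alternatives. Among these were the fits without shCTR replicate 1 or 2 (0.54 and 0.58) and without shMETTL3 replicate 1 or 2 (0.52 and 0.60).

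Of 18 genes of ribosome recycling and stalled ribosomes, the partners of ABCE1 and the F subfamily, none rose and 5 fell in shMETTL3, and 2 fell in shMETTL14, where 7.73% and 3.26% of all genes fell. HBS1L, a ribosome rescue factor, fell in both (-0.25 ± 0.07 SE and -0.30 ± 0.07, edgeR adjusted p = 0.0197 and 0.0158), and so did EIF2S3, a subunit of eIF2 (-0.21 ± 0.05 and -0.20 ± 0.05, 0.00922 and 0.0317). ANKZF1, which releases stalled peptides, fell in shMETTL3 (-0.31 ± 0.07, edgeR adjusted p = 0.00523). In shMETTL3, ANKZF1 lost its call without shMETTL3 replicate 2 (-0.29). HBS1L did so there without shCTR replicate 1 (-0.16) and without shMETTL3 replicate 1 or 2 (-0.28 and -0.23), and EIF2S3 without shMETTL3 replicate 1 or 2 (-0.23 and -0.20). In shMETTL14, HBS1L lost its call without shCTR replicate 1 (-0.20) and without shMETTL14 replicate 1 or 2 (-0.24 and -0.35), and EIF2S3 when any library but shCTR replicate 2 was left out (-0.20 to -0.17).

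Of 19 tested peroxisome genes, 1 rose in shMETTL3 and 1 in shMETTL14, where 8.73% and 3.43% of all genes rose. PEX6, an ATPase that recycles the import receptor, rose in both (0.25 ± 0.07 SE and 0.29 ± 0.07, edgeR adjusted p = 0.0219 and 0.0182). PEX6 kept its calls in 8 and 10 of 13 alternatives. Without shCTR replicate 1, PEX6 did not pass in either line (0.16 and 0.20), nor did it without either library of the knockdown line (0.29 and 0.21 in shMETTL3, 0.26 and 0.33 in shMETTL14). Of 13 sterol sensing and lipoprotein genes, 1 passed in each line. MYLIP, a ligase that degrades the LDL receptor, fell in shMETTL3 (-0.28 ± 0.07, edgeR adjusted p = 0.00689), where 7.73% of all genes fell. NPC2, a lysosomal cholesterol carrier, rose in shMETTL14 (0.41 ± 0.10, edgeR adjusted p = 0.0204), where 3.43% of all genes rose. MYLIP lost that call without shMETTL3 replicate 1 or 2 (-0.28 and -0.27) and NPC2 without shCTR replicate 1 (0.42) or shMETTL14 replicate 2 (0.29). NPC2 also lost it with DESeq2 (0.41, adjusted p = 0.0571) and with no filter (0.40, edgeR adjusted p = 0.0523), and kept it in 9 of 13 alternatives. Of 10 cobalamin genes, CD320, the receptor for transcobalamin, rose in both (0.26 ± 0.08 and 0.32 ± 0.08, edgeR adjusted p = 0.0310 and 0.0180), with calls kept in 4 and 9 of 13 alternatives; in shMETTL3 it passed without shCTR replicate 2 alone among the left-out libraries (0.34), and in shMETTL14 it was lost without shCTR replicate 1 (0.24) and without either shMETTL14 library (0.30 and 0.35). None of the 10 peptide loading genes, TAP1 and TAP2 among them, passed against shCTR. Of all genes, 16.5% passed in shMETTL3 and 6.69% in shMETTL14. Between the lines, 1 peptide loading gene was higher and 1 lower in shMETTL3 (20%, against 12.1% of all genes).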

How the data were processed

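RNA-seq of 6 K562 libraries was analysed, 2 each of shCTR, shMETTL3 and shMETTL14 cells, with groups and replicate numbers taken from the labels. The authors enriched polyadenylated RNA with oligo(dT) beads and primed cDNA with random hexamers. The values they deposited are raw read counts, as whole numbers for each gene and library. The submitters' processing notes name HTSeq 0.6.1 and hg38; aligner, annotation release and strand setting are not given in the sources used here. Reads from overlapping genes of opposite strands and from pseudogenes may therefore be split in ways that cannot be seen.

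Symbols came from a gene name table for 41209 rows and from GENCODE release 29 for 15846; 986 rows without an Ensembl identifier stayed in the totals. Positions, exons, lengths and GC content are those of GENCODE 29, and levels per kb use the longest transcript. All tests used edgeR 4.0.16 (R 4.3.3). A minimum count of 10 in filterByExpr left 17686 genes, and TMM factors and the quasi-likelihood test over all 6 libraries, which leaves 3 residual degrees of freedom, gave log2 fold changes with Benjamini-Hochberg adjusted p and a threshold of 0.05. Library totals of 19292574 to 20115304 make 1 read worth 0.0498 to 0.0522 CPM, and up to 3 reads were taken as the floor; intervals cover the spread between libraries as modelled. Alternatives were DESeq2 1.42.0, its size factors, library size alone, no filter, the compared groups only, a replicate block, a smooth trend on GC content and length (mgcv 1.9.3) removed, a fold of at least 1.5, and each library left out; where 1 library was left in a group, it was assumed to vary like the others. The steps were tested on simulated data.

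The members, roles and 8 companion lists were chosen with earlier results of these data known. Genes were named by rule: ABCB1, ABCC1 and ABCG2, each member past the threshold in a comparison, the 2 highest per kb in each role group and, per companion list, the 2 smallest adjusted p past the threshold in each comparison with shCTR. The other members and companions named with values were chosen after their values were seen. Some genes that meet these rules are not reported here.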

Additional observations from a re-analysis of the deposited data

Results flagged for a closer look

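Levels of 7 of the 25 tested ABC genes (28%, against 12.1% of all genes) differed between the knockdown lines. The test set shMETTL3 directly against shMETTL14 in 1 model (edgeR's quasi-likelihood test, adjusted over 17686 genes). Each group stood for 1 line, and whether the knockdowns or other differences between the lines parted these genes was not tested. ABCG2 was lower in shMETTL3 in 2 of 2 libraries, with a log2 difference of -2.07 (adjusted p = 8.97e-11), and ABCC3 was higher in 2 of 2, with a log2 difference of 0.95 (adjusted p = 5.75e-07). Smaller differences were 0.38 for ABCB1 (adjusted p = 0.0114), 0.27 for ABCA3 (0.00534), -0.23 for ABCA7 (0.0238), -0.54 for ABCA8 (0.0400) and -0.22 for ABCB8 (0.0360), and for these 5 leaving out single libraries ended the call. ABCG2 and ABCC3 kept theirs under all 13 alternatives.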

How the results depend on the processing

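The fold changes of METTL3 and METTL14 kept their direction and call under the 13 alternatives other than the fold threshold, as did those of ABCG2 in the 3 comparisons, ABCC3 in shMETTL14 and between the lines, and ABCA3 in shMETTL3, whose fold of 1.36 is under the threshold of 1.5. The count of ABC members called was 3 in place of 5 in shMETTL3 with DESeq2 and with no filter, 2 there and 2 in place of 7 between the lines with a fold of at least 1.5, and ranged from 2 to 6 and from 2 to 9 when single libraries were left out. The companion genes called in shMETTL3, 18, were 1 with a fold of at least 1.5 and 1 to 29 when single libraries were left out. In shMETTL14, 8 companions were called, 13 with the GC and length trend removed and 1 with the fold threshold. Of all 17686 genes, 1655 and 378 passed with these 2 settings. Between the lines, 9 were called, 5 with library size alone and with no filter, 14 with only the compared groups, 17 with the GC and length trend removed, 2 with the fold threshold and 3 to 15 with a library left out. The causes were not tested. No value reversed its call. With a replicate block, METTL3 was at -0.87 and METTL14 at -0.76. In the 3 comparisons 7, 2 and 8 ABC members and 22, 8 and 11 companions were called with that block. Of all 17686 genes, 3264, 1459 and 2478 were. Same-numbered libraries did not deviate together (correlations of 0.06, 0.01 and -0.02), so the numbers were not taken as pairs. Members with few reads, such as ABCC6 and ABCB11, had SEs of 0.45 and 0.56 in shMETTL3, so only large changes could be seen there.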
